A study of Mus musculus with 2 samples.

Results

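Cycling C1q macrophages are the cells of the cultures that carried RNA of the complement component C1q together with RNA of the cell division genes Mki67 and Top2a. A barcode was counted as one when it held at least 5000 unique molecular identifiers (UMIs, counted RNA molecules), at least 300 genes and at most 10% mitochondrial UMIs, and when 4 shares of its UMIs met fixed limits. These were at least 0.03% from C1qa, C1qb and C1qc together, at least 0.03% from Mki67 and Top2a together, under 0.1% from the osteoclast genes Acp5 and Ctsk together, and under 3% from the neutrophil genes S100a8 and S100a9 together. The rule found 618 cells, 259 in the DHT library and 359 in the Vehicle library. They belonged to 1277 C1q macrophages (686 with DHT and 591 with Vehicle) among 14896 barcodes past the quality limits (6766 and 8130) and 21428 barcodes in all (10798 and 10630). The same measured values chose the cells, so the levels of the rule genes in them are a description.

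Both libraries came from bone marrow of a male wild-type C57BL/6J mouse aged 3 months, and hold all adherent cells that EDTA and scraping lifted off the plate, which the labels name osteoclast precursors. The DHT culture held 1 nM 5α-dihydrotestosterone, an androgen that testosterone is converted to, and the Vehicle culture an equal volume of ethanol. For 48 h both were kept with 5 ng/mL M-CSF in medium depleted of hormones, and for a further 24 h with RANKL at 30 ng/mL, human TNF at 10 ng/mL and M-CSF at 100 ng/mL. With only 1 library in each group, the differences have no replicate check, no test was made, and the DHT effect and the difference between 2 cultures cannot be told apart. All intervals are 95% intervals for counting error only.

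C1q is the first component of the classical complement pathway, and in tissues macrophages are its main source. It tags dying cells and debris for uptake, and its 3 chains come from neighbouring genes, which in the mouse lie at chr4:136895917-136898803 (C1qa), chr4:136880129-136886187 (C1qb) and chr4:136889804-136893065 (C1qc), GRCm38, on the minus strand. M-CSF, which signals through the receptor Csf1r, keeps macrophages alive and drives their division, while RANKL turns the same precursors into osteoclasts. Mki67 encodes the proliferation marker Ki-67 (chr7:135689784-135716361) and Top2a the DNA topoisomerase that untangles chromosomes before mitosis (chr11:98992943-99024189). Both are transcribed mainly in S, G2 and M phase.

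Across the series the DHT library held 319430510 UMIs and the Vehicle library 453802415. Barcodes past the quality limits had a median of 39807.5 UMIs with DHT and 53792.5 with Vehicle. In cycling C1q macrophages the medians lay closer, at 54897 and 60792 UMIs, and the cells together held 14107668 and 21994808 UMIs. The libraries shared 33 barcodes. None was a cycling C1q macrophage in both, and 2 cycling C1q macrophages had a barcode that the other library held as well.

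Genes of the rule were found in most of the cells by its construction, and the background of C1qa was low. C1qa was found in 93.8% of cycling C1q macrophages with DHT and 89.4% with Vehicle, against 5.59% and 1.99% of the neutrophil RNA barcodes. Those barcodes should lack it and were shallower (medians of 16082 and 13015 UMIs). The division genes of the rule were not rare in the same barcodes. Mki67 was found in 44.6% of them with DHT and 46.2% with Vehicle, and Top2a in 42.0% and 42.6%. Macrophage genes outside the rule were present too, as the label has it. Ms4a7, a macrophage membrane gene, was found in 90.0% and 90.8% of the cells, against 10.3% and 5.56% of neutrophil RNA barcodes. Csf1r was at 318 CPM (UMIs per 1000000 UMIs of these cells together) with DHT and 302 CPM with Vehicle. The macrophage gene Adgre1, which encodes F4/80, was at 201 and 173 CPM (list of macrophage markers). Both set the cells apart less than Ms4a7. Csf1r was found in 97.3% of them with DHT and 98.6% with Vehicle, but also in 79.7% and 66.9% of neutrophil RNA barcodes. Adgre1 was found in 95.4% and 97.5% of the cells, against 34.2% and 24.8% of neutrophil RNA barcodes. Division genes outside the rule were also present. At least 0.03% of UMIs came from Birc5, Cdk1 and Ccna2 in 85.3% of the cells with DHT and 86.6% with Vehicle, against 4.92% and 12.5% of non-cycling C1q macrophages. Free RNA in droplets can give UMIs of a gene to cells that do not express it. Of the neutrophil RNA barcodes, 20 of 1897 (1.05%) in the DHT library and 3 of 1007 (0.298%) in the Vehicle library reached the C1q limit.

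The class is a range cut from continuous shares. The median C1q share of its cells was 0.0633% of UMIs with DHT and 0.0545% with Vehicle, and the median Mki67 and Top2a share was 0.106% and 0.109%. Just inside the C1q limit, at 0.03 to 0.04%, lay 46 DHT cells (17.8%) and 97 Vehicle cells (27.0%), and just outside it, at 0.02 to 0.03%, lay 94 and 171 otherwise qualifying barcodes. Just inside the division limit, at 0.03 to 0.04%, lay 24 DHT cells (9.27%) and 30 Vehicle cells (8.36%), and just outside it, at 0.02 to 0.03%, 28 and 43 cells. Many C1q macrophages were far from that limit, since 162 DHT cells (37.9% of the non-cycling ones) and 46 Vehicle cells (19.8%) had no UMI of either gene.

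**Figure D1:**
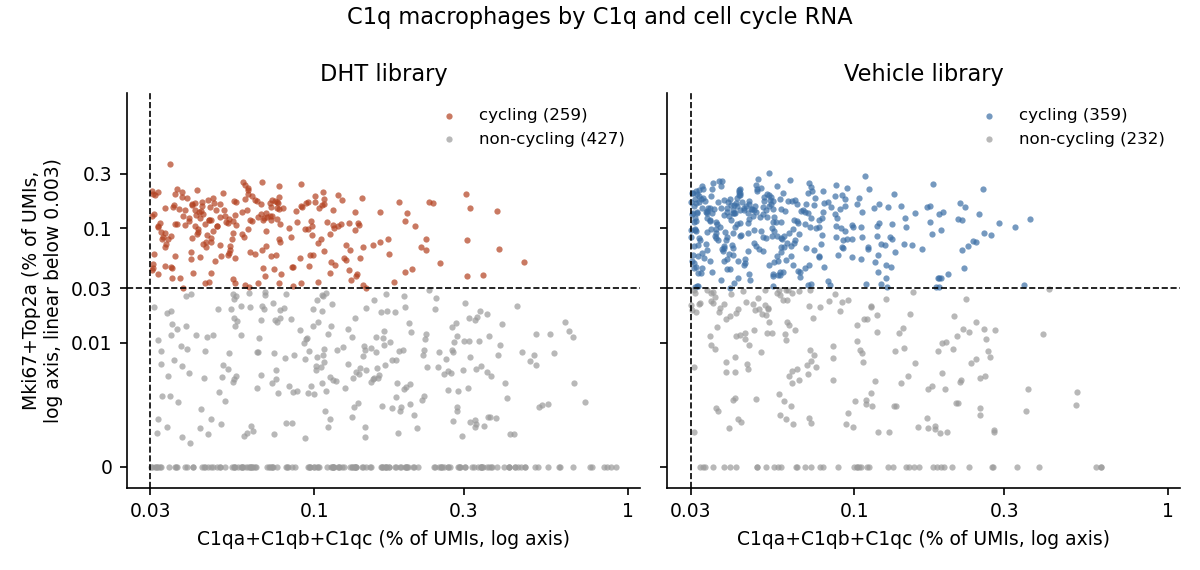
Each point is a C1q macrophage, with the share of its UMIs from C1qa, C1qb and C1qc on the log x axis and the share from Mki67 and Top2a on the y axis (log, linear below 0.003%), in the DHT library (left) and the Vehicle library (right). Dashed lines mark the 0.03% limits; coloured points are the 259 and 359 cycling cells, and grey points the 427 and 232 non-cycling cells, which reach higher C1q shares with DHT.

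A smaller share of C1q macrophages cycled in the DHT library. There 37.8% of C1q macrophages (259 of 686, exact binomial interval 34.1 to 41.5%) passed the division limit, against 60.7% (359 of 591, 56.7 to 64.7%) in the Vehicle library, a ratio of 0.622. Cycling C1q macrophages made up a similar part of all barcodes past the quality limits, 3.83% with DHT (3.38 to 4.31%) and 4.42% with Vehicle (3.98 to 4.89%). Non-cycling C1q macrophages made up 6.31% with DHT and 2.85% with Vehicle, a ratio of 2.21. The lower cycling share thus stood beside more non-cycling C1q macrophages, with the number of cycling ones per barcode at a ratio of 0.867. The make-up of these barcodes differed between the libraries. Neutrophil RNA barcodes (S100a8 and S100a9 at 3% or more) were 1897 of 6766 with DHT and 1007 of 8130 with Vehicle. Shares and ratios per barcode depend on this make-up too.

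Depth and the C1q level itself moved with the cycling share. Non-cycling C1q macrophages had a median of 26866 UMIs with DHT and 47839 with Vehicle. Among C1q macrophages with 5000 to 20000 UMIs, 21.6% cycled with DHT (43 of 199) and 44.6% with Vehicle (29 of 65). Among those with 20000 to 50000 UMIs the shares were 30.0% with DHT (75 of 250) and 46.7% with Vehicle (78 of 167), and at 50000 UMIs or more they were 59.5% with DHT (141 of 237) and 70.2% with Vehicle (252 of 359). The share was thus lower with DHT in each of the 3 depth ranges, and by less among the deepest cells. Thinning every C1q macrophage to 5000 UMIs left it at 37.9% with DHT and 59.6% with Vehicle. With Birc5, Cdk1 and Ccna2 in place of Mki67 and Top2a, it was 35.3% with DHT and 57.5% with Vehicle. Thinned to 20000 UMIs, which left out 199 DHT and 65 Vehicle cells, it was 45.6% with DHT and 62.9% with Vehicle, and the same cells without thinning were at 44.4% and 62.7%.

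Split by C1q share, the cells with 0.03 to 0.05% cycled in 59.6% of cases with DHT and 72.1% with Vehicle. At 0.05 to 0.1% the values were 49.3% with DHT and 64.8% with Vehicle, and at 0.1% or more 20.4% with DHT and 41.2% with Vehicle. In both libraries, cells with the most C1q RNA cycled least. With both limits applied, at 50000 UMIs or more, the shares in these 3 C1q ranges were 68.7% with DHT (interval 56.2 to 79.4%) against 78.7% with Vehicle, 71.3% (61.0 to 80.1%) against 78.0%, and 36.8% (26.1 to 48.7%) against 47.4%. Each was still lower with DHT. Each Vehicle value lay within the DHT interval. The DHT value lay below the Vehicle interval in the lowest range (71.0 to 85.2%) and the highest (37.0 to 57.9%). Among the deepest cells it is thus not settled whether the gap within a C1q range exceeds counting error. Without the C1q split their shares were 59.5% with DHT (52.9 to 65.8%) and 70.2% with Vehicle (65.2 to 74.9%).

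The direction was the same in 1 neighbouring set of barcodes, which is mixed, and opposite in another. Of barcodes below the C1q limit that met the same Acp5, Ctsk, S100a8 and S100a9 limits, 49.1% cycled with DHT (1741 of 3548) and 59.2% with Vehicle (3241 of 5477). Barcodes within those limits included 278 with B lineage RNA (Cd79a and Cd79b at 0.1% or more) with DHT and 41 with Vehicle. Only 8 and 3 of these passed the division limit, and 1 and 0 reached the C1q limit. Their part in the gap was not tested. Of barcodes past the Acp5 and Ctsk limit, 45.4% cycled with DHT and 38.2% with Vehicle, the opposite direction. The UMI minimum, the collection of adherent cells and the depth gap between the libraries can all set such shares, and their part in the result was not tested.

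**Figure D2:**
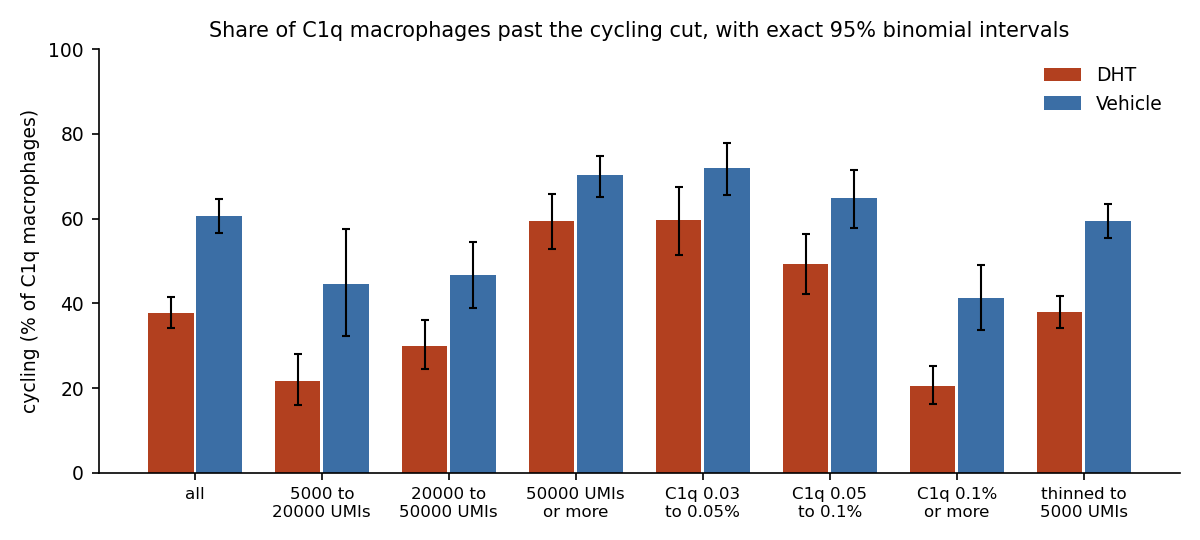
Bars give the share of C1q macrophages past the cycling limit (y axis, percent) in the DHT and Vehicle libraries, for all cells, by UMIs per cell, by C1q share of UMIs and after thinning to 5000 UMIs; error bars are exact 95% binomial intervals for counting error. The DHT bar is lower in each of the 8 pairs, at 37.8% against 60.7% for all cells and 59.5% against 70.2% for cells with 50000 UMIs or more.

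Within the cycling cells, the DHT library had more RNA of interferon-stimulated genes, of a set of macrophage and monocyte genes and of several inflammatory mediators. RNA of division genes was close to the same, in cells that the rule chose on Mki67 and Top2a. UMIs of a library's cycling cells were added up, and genes whose CPM differed by 1.5-fold or more were called higher or lower. Of 6631 genes that reached 20 CPM with DHT, Vehicle or both, 151 (2.28%) were higher with DHT and 18 (0.271%) lower, with a median log2 ratio (DHT over Vehicle) of 0.03 over all of them. In non-cycling C1q macrophages of the same libraries 299 of 6434 genes (4.65%) were higher and 71 (1.1%) lower. In cycling barcodes below the C1q limit 165 of 6664 (2.48%) were higher and 22 (0.33%) lower. These comparisons come from different cells of the same 2 libraries.

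**Figure D3:**
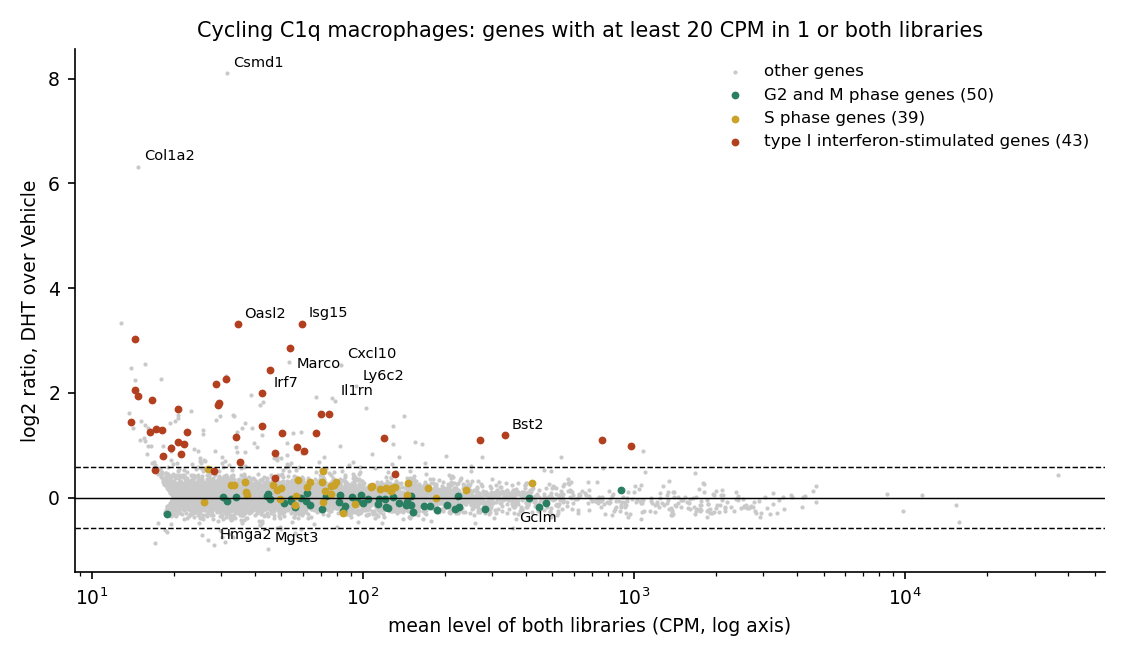
Each point is a gene in cycling C1q macrophages, with the mean CPM of both libraries on the log x axis and the log2 ratio of DHT over Vehicle on the y axis; dashed lines mark 1.5-fold. Coloured interferon-stimulated genes lie above 0 and mostly past 1.5-fold, while S phase and G2 and M phase genes lie between the lines. Csmd1 and Col1a2, at the top, each come almost wholly from 1 DHT cell.

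Type I interferon-stimulated genes were a large group in the difference. Of the 151 higher genes, 46 were in this list or in the interferon gamma and antigen presentation list below. Interferons act through the kinases and STAT proteins of their receptor and switch on genes that sense viral RNA, degrade it or block its translation. Of 58 members of the type I list measured in cycling C1q macrophages (2 CPM or more on either side), DHT cells had at least 1.5-fold more RNA of 54. They had as much less of none, and the median log2 ratio was 1.48. At the same minimum, 5.36% of all 10774 genes were called higher and 1.29% lower, and their median was 0.04. The list had 57 of 59 members higher in non-cycling C1q macrophages (median 1.99, beside 7.19% of all genes) and 51 of 56 in cycling barcodes below the C1q limit (1.54, beside 5.37% higher and 0.746% lower). The list was chosen with earlier results of these data known, so its count is not independent evidence of its direction.

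Isg15, a ubiquitin-like protein that is attached to other proteins, was at 109 CPM with DHT (interval 103 to 114 CPM) and 10.9 CPM with Vehicle (9.53 to 12.3 CPM), a ratio of 10.0 (8.73 to 11.5). Its UMIs came from 196 of 259 DHT cells and 102 of 359 Vehicle cells, and no cell gave more than 6.78% of those in the DHT library. Oasl2, of the oligoadenylate synthetase family, was at 62.9 CPM with DHT and 6.32 CPM with Vehicle, a ratio of 9.95 (8.31 to 11.98). Zbp1, a sensor of Z-form nucleic acids, was at 25.6 CPM with DHT and 3.14 CPM with Vehicle, a ratio of 8.16 (6.29 to 10.7). The intervals of these 3 genes lie far above 1.5-fold.

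Irf7, the transcription factor that amplifies interferon output, was at 76.6 CPM with DHT and 14.1 CPM with Vehicle, a ratio of 5.41 (4.77 to 6.16). Rtp4, an interferon-induced protein, was at 94.5 CPM with DHT and 12.96 CPM with Vehicle. Ddx58, which encodes the RNA sensor RIG-I, was at 51.5 CPM with DHT and 10.8 CPM with Vehicle. Signalling factors moved the same way, with Stat2 at 25.8 CPM with DHT and 10.5 CPM with Vehicle, and its partner Irf9 at 47.1 and 21.1 CPM. Some members had smaller ratios. Ifitm3, which blocks viral entry, was at 1300.4 CPM with DHT and 654 CPM with Vehicle (log2 ratio 0.99), and Bst2, which tethers virus particles, at 464 and 204 CPM (1.19). Tor3a (0.38) and Shisa5 (0.46) were the members with at least 20 CPM that had the smallest ratios, both below 1.5-fold. Reads of the Slfn, Oas and Ifi200 genes may be split among close copies, so their single values are uncertain.

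Promoters are shown for 3 genes that were higher and 1 division gene that was not, because they carry the motifs of the 2 programmes that met in these cells. The interferon-stimulated response element is bound by STAT and IRF factors and has as its core GAAA and, 2 bases further on, another GAAA. G2 and M phase promoters often hold the cell cycle genes homology region, TTTGAA, and CCAAT boxes. Capitals mark the response element core in the first 3 sequences below and TTTGAA and CCAAT in Ccnb2, each from RefSeq (GRCm38.p6), 5′ to 3′ on the minus strand, running from 250 bases before the transcription start to 50 after it.
Isg15 at chr4:156200769-156201068: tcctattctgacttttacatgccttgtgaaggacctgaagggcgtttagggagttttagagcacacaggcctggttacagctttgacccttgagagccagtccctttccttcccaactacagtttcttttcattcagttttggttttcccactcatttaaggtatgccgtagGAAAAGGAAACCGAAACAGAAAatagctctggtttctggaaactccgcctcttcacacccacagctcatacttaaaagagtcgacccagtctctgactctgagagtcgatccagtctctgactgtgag
Oas3 at chr5:120777610-120777909: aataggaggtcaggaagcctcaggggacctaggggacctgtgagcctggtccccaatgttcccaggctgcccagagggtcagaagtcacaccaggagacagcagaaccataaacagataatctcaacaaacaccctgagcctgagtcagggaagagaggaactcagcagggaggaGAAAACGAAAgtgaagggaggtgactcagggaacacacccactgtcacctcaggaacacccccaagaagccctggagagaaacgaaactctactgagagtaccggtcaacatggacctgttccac
Cxcl10 at chr5:92348840-92349139: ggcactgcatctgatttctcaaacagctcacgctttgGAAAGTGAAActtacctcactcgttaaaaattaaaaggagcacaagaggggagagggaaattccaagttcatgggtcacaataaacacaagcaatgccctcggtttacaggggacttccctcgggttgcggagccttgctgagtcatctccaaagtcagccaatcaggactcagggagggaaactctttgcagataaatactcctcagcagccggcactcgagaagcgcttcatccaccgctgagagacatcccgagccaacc
Ccnb2 at chr9:70421505-70421804: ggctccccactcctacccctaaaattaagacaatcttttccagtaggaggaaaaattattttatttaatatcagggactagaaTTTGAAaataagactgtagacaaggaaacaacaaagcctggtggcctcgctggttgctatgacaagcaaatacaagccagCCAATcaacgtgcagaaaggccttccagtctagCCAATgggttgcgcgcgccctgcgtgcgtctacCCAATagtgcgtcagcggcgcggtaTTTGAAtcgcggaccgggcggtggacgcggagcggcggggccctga
Isg15 held 3 overlapping matches that start 78, 72 and 66 bases upstream of the start site, Oas3 one at 75 bases and Cxcl10 one at 213 bases. Ccnb2 held CCAAT 87, 54 and 21 bases upstream, one TTTGAA 167 bases upstream and another just past the start site. Oas3, a synthetase of the RNase L pathway, was at 68.0 CPM with DHT and 16.9 CPM with Vehicle.

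On either strand, this response element core was found in 25 of 62 promoters (40.3%) of the 46 measured interferon-stimulated genes with an entry, against 3 of 44 promoters (6.82%) of the 42 G2 and M phase genes with an entry. Of all 32851 promoters of that length in the table, 1131 (3.44%) held it. TTTGAA was found in 32 of the 44 G2 and M phase promoters (72.7%), 11 of the 62 interferon-stimulated promoters (17.7%) and 17.9% of all, and CCAAT in 77.3%, 35.5% and 37.4%. TTTGAA and CCAAT are short and do not overlap in Ccnb2. These matches describe letters only.

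The higher interferon RNA was spread over most cells. The list made up a median of 0.467% of a cycling C1q macrophage's UMIs with DHT (quartiles 0.339 and 0.694%) and 0.209% with Vehicle (0.166 and 0.273%), so the lower quartile with DHT lay above the upper quartile with Vehicle. Of the DHT cells, 135 (52.1%) were above 0.441%, the 95th percentile of the Vehicle cells. The level changed little with C1q among cycling cells. It was 0.450% with DHT and 0.208% with Vehicle at a C1q share of 0.03 to 0.05%, 0.460% and 0.209% at 0.05 to 0.1%, and 0.539% and 0.213% at 0.1% or more. Non-cycling cells had more in each of these ranges, with 0.646% with DHT and 0.222% with Vehicle in the lowest and 0.876% and 0.291% in the highest. Across cycling DHT cells, Spearman's rho of the list's share was 0.11 with the C1q share, -0.08 with the Mki67 and Top2a share and -0.01 with UMIs (259 cells of 1 library), too weak to read as a relation.

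**Figure D4:**
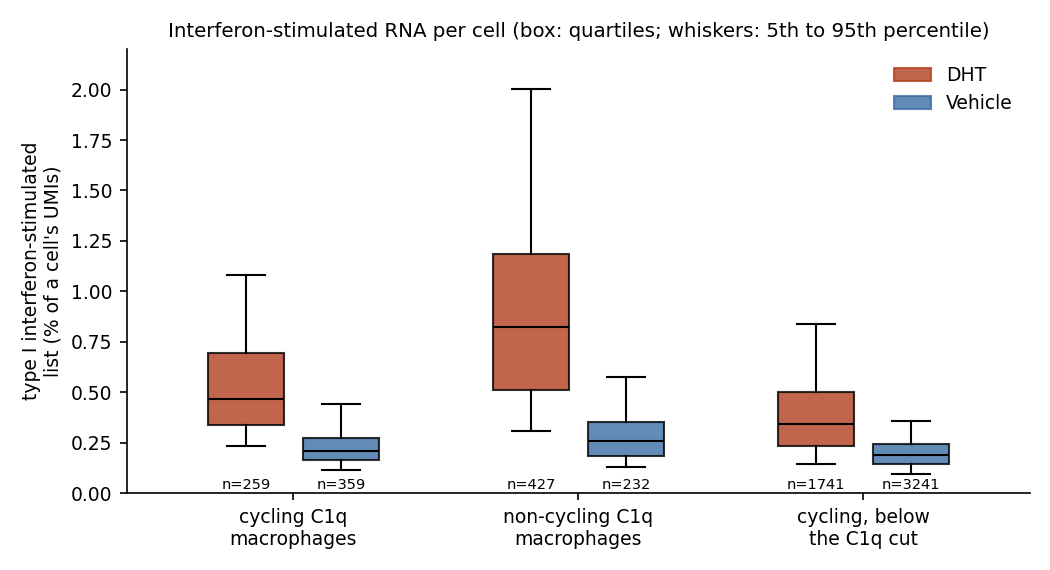
Boxes show the share of a cell's UMIs from the type I interferon-stimulated list (y axis, percent) in the DHT and Vehicle libraries for cycling C1q macrophages, non-cycling C1q macrophages and cycling barcodes below the C1q limit; boxes span the quartiles with the median as a line, and whiskers the 5th to 95th percentile of cells. Medians are 0.467% and 0.209% in cycling C1q macrophages and 0.824% and 0.259% in non-cycling ones.

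Antigen presentation genes that interferons induce followed in part. Of 24 measured members of the interferon gamma GTPase and antigen presentation list, 16 were higher with DHT and none lower, with a median of 0.87, beside 5.36% of all genes higher and 1.29% lower. B2m, the light chain of MHC class I, was at 1397.7 CPM with DHT and 753.7 CPM with Vehicle, Tapbp, the peptide-loading factor tapasin, at 222 and 110 CPM, and Tap1, the peptide transporter, at 44.9 and 23.1 CPM. H2-D1, a class I heavy chain, had a log2 ratio of 0.30 and Psmb8, an immunoproteasome subunit, of 0.11, both under 1.5-fold. H2-Q7 (1.46) has close copies among the H2-Q genes, so its value is uncertain. Of 7 measured MHC class II presentation genes, 2 were higher and none lower (median 0.23), beside the same shares of all genes. One was Cd74, the invariant chain, at 47.5 CPM with DHT and 26.0 CPM with Vehicle, with 26.4% of its DHT UMIs in 1 cell.

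The division programme differed little among cells that had passed the same division limit. Across these cells the G2 and M phase list's share rose with the Mki67 and Top2a share (Spearman's rho 0.73 with DHT and 0.75 with Vehicle). The rule thus partly set how alike the libraries are here, and the values are a description. None of 40 S phase genes and none of 50 G2 and M phase genes reached 1.5-fold in either direction, with medians of 0.19 and -0.08. Of all genes 5.36% were higher and 1.29% lower. S phase genes were slightly higher with DHT, with 33 of 40 above a log2 ratio of 0, beside 58.9% of all genes. Pcna, the sliding clamp of DNA polymerases, was at 460 CPM with DHT and 378 CPM with Vehicle, Ccne2, the cyclin of S phase entry, at 83.2 and 58.9 CPM, and Cdc6, which loads the replicative helicase, at 31.8 and 21.6 CPM. Tyms, thymidylate synthase, ran the other way at 76.1 and 93.2 CPM. Per cell, the S phase list made up a median of 0.392% of UMIs with DHT and 0.322% with Vehicle.

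Of the G2 and M phase genes 14 of 50 were above 0. Cdk1, the mitotic kinase, was at 226 CPM with DHT and 222 CPM with Vehicle, its partner Ccnb1 at 119 and 121 CPM, and Birc5, which encodes survivin, at 262 and 303 CPM. Per cell this list made up 0.653% with DHT and 0.675% with Vehicle. Mki67 itself was at 443 CPM with DHT and 533 CPM with Vehicle and Top2a at 679 and 654 CPM, values that the rule selected on. In non-cycling C1q macrophages the same list had 23 of 50 genes lower and none higher with DHT (median -0.57, beside 3.42% of all genes lower), and the S phase list a median of -0.15. Whether the classes differ was not tested. Of 26 cell cycle entry genes and inhibitors, 1 was higher and 1 lower in cycling cells, beside 5.36% of all genes higher and 1.29% lower. Ccnd1, the M-CSF-induced cyclin D1, was at 848 CPM with DHT and 772 CPM with Vehicle, and Cdkn1a, the inhibitor p21, at 384 and 326 CPM.

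Among macrophage genes a few stood out while most did not differ by 1.5-fold. Of 32 measured C1q, efferocytosis and resident macrophage genes, 9 were higher with DHT and none lower, with a median of 0.17, beside 5.36% and 1.29% of all genes. Marco, a scavenger receptor for bacteria and particles (chr1:120474538-120505024, GRCm38), was at 91.2 CPM with DHT and 15.0 CPM with Vehicle, a ratio of 6.06 (5.37 to 6.86). Its UMIs came from 50 of 259 DHT cells and 32 of 359 Vehicle cells, and 1 DHT cell gave 16.4% of them. Marco was at 72.1 CPM with DHT and 43.0 CPM with Vehicle in non-cycling C1q macrophages and 5.33 and 4.15 CPM in cycling barcodes below the C1q limit.

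Maf, a transcription factor that restrains macrophage self-renewal in the mouse, was at 77.5 CPM with DHT and 33.0 CPM with Vehicle (log2 ratio 1.23). Fcgr1, the high-affinity IgG receptor, was at 49.97 CPM with DHT and 17.0 CPM with Vehicle, and Mrc1, the mannose receptor, at 77.05 and 42.5 CPM. Ms4a7 (216 CPM with DHT and 191 CPM with Vehicle), Apoe (270.5 and 226.6 CPM) and Trem2 (263 and 345 CPM) stayed within 1.5-fold. The rule genes C1qa (243 CPM with DHT and 186 CPM with Vehicle), C1qb (378 and 358 CPM) and C1qc (232 and 189 CPM) did so too. Of 6 measured alternative activation genes 4 were higher and none lower (median 0.74), beside 5.36% of all genes higher and 1.29% lower. Arg1, the arginase of alternative activation, was among them at 20.5 CPM with DHT and 9.55 CPM with Vehicle, with 23.5% of its DHT UMIs in 1 cell. Chil3, a chitinase-like protein, was at 25.4 and 13.7 CPM, and its direction turned when free RNA was subtracted (log2 ratio -3.79).

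Inflammatory mediators were mixed. Of 30 measured NF-kB and cytokine genes 8 were higher with DHT and none lower, with a median of 0.15, beside 5.36% of all genes higher and 1.29% lower. Il1rn, the natural antagonist of the interleukin-1 receptor, was at 123 CPM with DHT and 34.2 CPM with Vehicle, a ratio of 3.59 (3.30 to 3.92), and was at 116 and 35.7 CPM in non-cycling C1q macrophages. Saa3, an acute-phase protein, was at 23.6 CPM with DHT and 4.23 CPM with Vehicle, and Tnf at 25.2 and 19.5 CPM. Saa3 UMIs came from 41 DHT and 27 Vehicle cells, and 1 cell held 34.2% of them with DHT and 1 cell 31.2% with Vehicle. Cxcl2, a neutrophil attractant, was at 49.8 CPM with DHT and 65.6 CPM with Vehicle, within 1.5-fold.

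Of 16 measured chemokines and chemokine receptors 7 were higher with DHT and none lower (median 0.50), beside the same 5.36% and 1.29% of all genes. Cxcl10, the interferon-induced ligand of Cxcr3, was at 141 CPM with DHT and 24.3 CPM with Vehicle, but 1 Vehicle cell held 53.1% of its Vehicle UMIs and 1 DHT cell 21.9% of its DHT UMIs. Its log2 ratio was 2.54, and 3.28 without those cells. Ccl7, a monocyte attractant, was at 42.3 CPM with DHT and 15.1 CPM with Vehicle, and Ccl6 at 61.5 and 15.7 CPM. For Ccl7, 1 cell held 17.1% of the UMIs with DHT and 1 cell 24.4% with Vehicle. For Ccl6 these shares were 33.1% and 4.62%. Ccl5 was scarce in the cycling cells, at 3.26 CPM (46 UMIs) with DHT and 0.727 CPM (16 UMIs) with Vehicle, against 123 and 1.26 CPM in non-cycling C1q macrophages.

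Few genes were lower with DHT, and of those with at least 20 CPM in either library none by 2-fold. Mgst3, a microsomal glutathione transferase, was at 30.1 CPM with DHT (interval 27.3 to 33.1 CPM) and 59.2 CPM with Vehicle (56.0 to 62.5 CPM), a ratio of 0.509. Hmga2, a chromatin protein of proliferating and fetal cells, was at 19.5 CPM with DHT and 36.7 CPM with Vehicle, from 44 DHT cells and 105 Vehicle cells. Cd207, the lectin langerin, was at 12.1 CPM with DHT and 22.1 CPM with Vehicle. Others among the 12 lowest were Hist1h2bc (log2 ratio -0.80), a histone H2B gene, Syngr1 (-0.75), Lsp1 (-0.75), an actin-binding protein of leukocytes, Angptl2 (-0.69), Trerf1 (-0.67), Cd109 (-0.66), Tmem238 (-0.64) and Nrp1 (-0.61), a receptor for semaphorins and VEGF. Id3, an inhibitor of helix-loop-helix factors, was at 39.6 CPM with DHT and 60.2 CPM with Vehicle.

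Antioxidant and iron genes were split. Of 20 NRF2, ferritin and heme genes 1 was lower with DHT and none higher (median -0.05, 8 above 0). Of all genes 5.36% were higher and 1.29% lower, so a count this small says little about the list. Gclm, the modifier subunit of the enzyme that starts glutathione synthesis, was at 285 CPM with DHT and 429 CPM with Vehicle (log2 ratio -0.59). The ferritin light chain Ftl1 had a log2 ratio of -0.47, while Hmox1, which breaks down heme, was at 176 CPM with DHT and 123 CPM with Vehicle (0.51).

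Some osteoclast genes were higher with DHT in these cells, which the rule keeps low in Acp5 and Ctsk. Of 31 osteoclast differentiation genes 6 were higher with DHT and none lower (median 0.13), beside 5.36% of all genes higher and 1.29% lower. Of 7 measured osteoclast markers, some of them in that list too, 3 were higher, with a summed 421 CPM with DHT and 290 CPM with Vehicle and a per-cell median of 0.0246% of UMIs with DHT and 0.0150% with Vehicle. Acp5, a rule gene, was at 64.4 CPM with DHT and 42.4 CPM with Vehicle. The matrix proteases Mmp9 (186 CPM with DHT and 71.6 CPM with Vehicle) and Mmp14 (171 and 101 CPM) were higher. Mmp9 is among the summed osteoclast markers and makes up much of their difference. It was at 45.6% of its level over all barcodes with DHT and 32.1% with Vehicle, and 1 Vehicle cell held 19.4% of its Vehicle UMIs. How much of its RNA came from other cells was not tested. Nfatc1, the master factor of osteoclasts, was at 98.4 CPM with DHT and 117 CPM with Vehicle, and Tnfrsf11a, the receptor of RANKL, at 220 and 203 CPM. Of 16 osteoclast repressors 3 were higher, among them Zfp36l1 (0.59) and Zfp36 (0.65), which destabilise mRNAs, and 1 was lower, Id3. Calcr, the calcitonin receptor of mature osteoclasts, had no UMI in either library.

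The androgen and steroid response list had 3 of 14 members higher and none lower (median 0.08). The counts of this list and the next ones stand beside 5.36% of all genes higher and 1.29% lower. Fkbp5, a chaperone that steroid receptors induce in many cells, was at 44.3 CPM with DHT and 45.3 CPM with Vehicle. Lipid handling genes had 4 of 17 higher and 1 lower (0.11), with Nr1h3, which encodes the sterol sensor LXR alpha, at 26.1 CPM with DHT and 13.1 CPM with Vehicle. Apoptosis and survival genes had 2 of 18 higher (0.15), with the death effector Bcl2l11 at 70.7 CPM with DHT and 54.3 CPM with Vehicle. Immediate early genes had 4 of 15 higher (0.23), with Fos at 299.6 CPM with DHT and 301 CPM with Vehicle. Unfolded protein response genes had 2 of 15 higher (0.28) and glycolysis genes none of 16 (0.01). In the 4 lists after the lipid genes no member was lower.

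RNA of other cell types moved with DHT in the same cells, and its part in the results was not tested. Neutrophil markers were higher in 9 of 12 cases and lower in none, beside 5.36% and 1.29% of all genes. Their summed level was 12621.6 CPM with DHT and 11907.3 CPM with Vehicle, nearly all from Lyz2 (11718 and 11353 CPM), which macrophages also express. Camp, a secondary granule protein, was at 59.2 CPM with DHT and 25.9 CPM with Vehicle, and S100a9, a rule gene, at 346 and 201 CPM. Subtracting free RNA left 5 measured neutrophil markers with 1 higher and 1 lower, but the subtracted amount was itself set by such markers. It also left 54 of 58 interferon-stimulated genes higher.

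Monocyte markers were higher in 6 of 6 cases, with a summed 471 CPM with DHT and 147 CPM with Vehicle. Per cell, the upper quartile of their share of UMIs was 0.0217% with DHT and 0.0137% with Vehicle. The 95th percentile was 0.227% and 0.0429%, so the libraries differed most among the cells with the most of this RNA. For the monocyte marker Plac8, 1 cell held 35.3% of the UMIs with DHT and 1 cell 58.1% with Vehicle. Without each gene's leading cell all 6 markers were still higher. Ly6c2, a surface protein of inflammatory monocytes that interferons also induce, was at 154 CPM with DHT and 35.1 CPM with Vehicle, F13a1, the coagulation factor XIII A chain, at 157 and 48.1 CPM, and Ccr2, the receptor for Ccl2, at 55.6 and 22.3 CPM. Granulocyte-monocyte progenitor markers were higher in 4 of 5 cases (185 and 74.5 CPM summed). A single DHT cell held 87.8% of the UMIs of Mpo, a single one 74.0% of those of Prtn3 and a single one 73.2% of those of Elane. With Vehicle, 1 cell held 61.5% of the UMIs of Elane and 1 cell 41.4% of those of Prtn3. Without each gene's leading cell the log2 ratio of Mpo was -0.32 and that of Prtn3 -0.13. At a C1q limit of 0.05% all 5 progenitor markers were lower with DHT (median -1.54). B lineage markers were higher in 4 of 4 measured cases (22.7 and 5.64 CPM summed), with Igll1 at 0 in both libraries. Dendritic, erythroid, T and NK cell markers were not measured at 2 CPM in these cells. Hba-a1, Hbb-bs, Cd3e and Ncr1 were at 0 in both libraries.

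Stromal markers were higher in 5 of 5 cases (67.1 CPM with DHT and 2.41 CPM with Vehicle), and 1 DHT cell and no Vehicle cell carried at least 0.1% stromal RNA. The largest ratios of the named genes came almost wholly from 1 DHT cell for each gene. Whether the Csmd1 cell was the one with stromal RNA was not tested. Csmd1, a complement regulator, had 886 UMIs with DHT, 98.9% of them in 1 cell, and 5 with Vehicle, and Col1a2, a collagen chain, had 411 with DHT, 96.8% in 1 cell, and 8 with Vehicle. Timp1, an inhibitor of metalloproteinases, had 80.7% of its DHT UMIs in 1 cell and a log2 ratio of 2.56, and of 0.25 without it. Altogether 7 of the 151 higher genes drew more than 50% of their DHT UMIs from 1 cell, the seventh being Cstdc4. Scrublet called 4 of the DHT cells (1.54%) and 7 of the Vehicle cells (1.95%) doublets, and 29 in each library were among the 10% of barcodes with the highest scores.

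Set beside non-cycling C1q macrophages of their own library, the cycling cells had less RNA of the mature macrophage programme. The rule chose the cells on their division genes and, with the same limit in both classes, on C1q, so this contrast is a description. The rule genes C1qa, C1qb and C1qc are among the 10 macrophage markers. The 10 macrophage markers had a median log2 ratio (cycling over non-cycling) of -1.39 in the DHT library, with 9 lower, and of -0.90 in the Vehicle library, with 7 lower, beside 9.44% and 6.91% of all genes lower (13.8% and 9.77% higher). Maf was at 77.5 CPM in cycling against 288 CPM in non-cycling DHT cells, and at 33.0 against 101 CPM in Vehicle cells. All but 1 of 7 MHC class II genes were lower in the cycling cells of both libraries (medians -1.81 with DHT and -1.29 with Vehicle). Interferon-stimulated genes were lower in cycling cells by 39 of 59 members with DHT (median -0.81) and 20 of 56 with Vehicle (-0.42). Isg15 was at 109 against 245 CPM with DHT and 10.9 against 17.9 CPM with Vehicle, and Irf7 at 76.6 against 230 CPM with DHT and 14.1 against 13.8 CPM with Vehicle. Progenitor markers ran the other way, higher in the cycling cells by 5 of 5 members in both libraries. In both libraries single cells held much of this RNA, as given above.

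**Figure D5:**
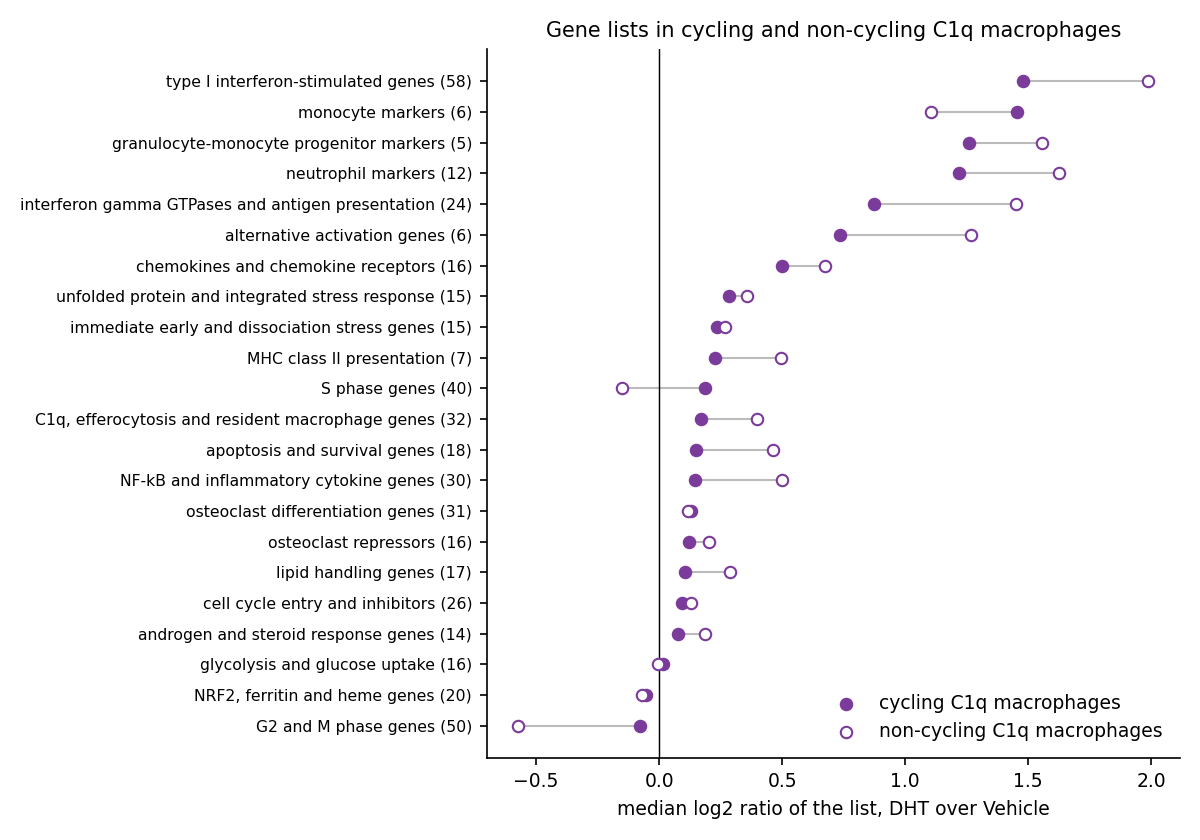
Median log2 ratio of DHT over Vehicle (x axis) for the gene lists other than the stromal, B lineage, osteoclast and macrophage markers (y axis, number of genes measured in cycling cells in brackets), in cycling C1q macrophages (filled) and non-cycling C1q macrophages (open). Of the lists drawn, the interferon-stimulated one is highest in both, at 1.48 and 1.99, and the S phase list (0.19 and -0.15) and the G2 and M phase list (-0.08 and -0.57) lie further left in non-cycling cells.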

How the data were processed

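Members, gene lists and tests were chosen with earlier results of these data known. For both libraries the authors deposited unnormalized UMI counts of every gene in every barcode. These came from Cell Ranger 7.0.1, per the file headers. GRCh38 and mm10 are the builds listed, with no role, by the submitters' processing notes. Cell calling and the use of intronic reads or strand: not given in the sources used here. Of 32285 mouse gene identifiers 32235 matched GENCODE M21 (GRCm38), which gave positions, and promoters came from RefSeq (GRCm38.p6).

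The counts of a class's cells were added up per library and scaled to CPM (Python 3.11.15, numpy 2.4.6, scipy 1.17.1, pandas 2.3.3). Intervals are exact Poisson for CPM, Clopper-Pearson for shares and conditional binomial for ratios. A library at 0 was set to 3 counts in ratios. Doublets were scored with Scrublet (scanpy 1.11.5, expected rate 0.08, barcodes with at least 800 UMIs) and kept. Thinning drew UMIs without replacement. The steps were tested on simulated counts. Named genes are the 12 highest and 12 lowest past 1.5-fold at 20 CPM, without mitochondrial, ribosomal protein, immunoglobulin, sex-linked marker and predicted genes, list members past 1.5-fold, the 2 highest and 2 lowest of each list, the rule genes and 22 genes fixed by name. Cstdc4, Adgre1, Calcr, Igll1, Hba-a1, Hbb-bs, Cd3e and Ncr1 were named after their values were seen. TMM scaling used edgeR 4.0.16. Some genes that this rule or the lists name are not reported here.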

Additional observations from a re-analysis of the deposited data

Results flagged for a closer look

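Among named genes past 1.5-fold in cycling C1q macrophages and lists of at least 10 measured genes with medians past 0.1 in both classes, 1 gene and 1 list had a DHT over Vehicle difference of the opposite sign in non-cycling ones. The difference between the classes was not tested, since each group has 1 library. Id3 had a log2 ratio of -0.60 in cycling cells (39.6 CPM with DHT and 60.2 CPM with Vehicle) and 0.20 in non-cycling cells (62.4 and 54.2 CPM), a gap of -0.81. For S phase genes the median was 0.19 in cycling cells and -0.15 in non-cycling cells, a gap of 0.34. Genes under 1.5-fold in cycling cells could also differ in sign, such as Cdc6 (0.55 and -0.51). The classes were cut on division genes, which the S phase list moves with.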

How the results depend on the processing

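No paired analysis was possible because each group has 1 library, and no replicate could be left out. The cycling share of C1q macrophages was lower with DHT under all 12 alternatives run for it. It moved outside the counting interval at a Mki67 and Top2a limit of 0.02% (41.8% with DHT and 68.0% with Vehicle) or 0.05% (31.5% and 51.6%), at a C1q limit of 0.1% (20.4% and 41.2%) or 0.05% (31.6% and 53.9%, added after seeing the data), and for DHT after thinning to 20000 UMIs (45.6%), which leaves out shallower cells (44.4% in the remaining cells without thinning). The count of interferon-stimulated genes higher lay between 46 and 55 over 17 alternatives. The counts of all higher and lower genes became 255 and 112 at a C1q limit of 0.1% (69.5% of calls higher, against 89.3% in the main comparison), 70 and 6 at 50 CPM, 578 and 139 at 2 CPM and 83 and 0 at 2-fold, and 30 genes were lower at a C1q limit of 0.05%. TMM and median-of-ratios scaling gave 137 and 22, averaging CPM over single cells 148 and 19, and leaving out each gene's leading cell 129 and 19 (127 of the higher genes shared).

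Of 1394 values of 100 named genes past 1.5-fold, 1381 kept their direction, 178 of them outside the counting interval. The settings reuse the same 2 libraries that picked the genes, so kept directions are no replicate check. At a C1q limit of 0.1% log2 ratios turned for S100a9 (-0.73), Acp5 (-0.16), Prtn3 (-2.58), Elane (-2.12), Mpo (-2.58) and Hmga2 (1.62), at 0.05% for Plac8 (-0.046), Prtn3 (-1.54), Elane (-0.99) and Mpo (-2.12), with free RNA subtracted for Chil3 (-3.79), and without the leading cell for Prtn3 (-0.13) and Mpo (-0.32). The cause was not tested, except that the last setting leaves out 1 cell. Free RNA was put at 4.42% of UMIs with DHT and 3.71% with Vehicle, with estimates from single markers between 1.71 and 48.2% for DHT and between 1.94 and 129% for Vehicle. Genes near 20 CPM can draw many of their UMIs from 1 cell, such as Arg1 with DHT (20.5 CPM, 289 UMIs, 23.5% in 1 cell). Intervals do not cover the spread between cells or cultures.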
